A study of Mus musculus with 3 samples.

Results

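The clustered histone genes code for the histones that a cell makes while it copies its DNA. They were taken as the rows of the expression table whose symbol starts with Hist1h, Hist2h, Hist3h or Hist4h, which gave 62 of 20677 genes: 4 of linker histone H1, 18 of H2A, 18 of H2B, 11 of H3 and 11 of H4. The RNA came from mast cells of the skin, sorted at 1 week of age from mice on a C57BL/6xCD1xFVB background, and 3 libraries represent 3 embryonic origins of these cells. All the mice carried EYFP, a yellow fluorescent reporter that Cre recombinase switches on, and all were pulsed before birth with 4'OHT, the tamoxifen metabolite that activates an inducible Cre. Csf1rCre/EYFP mice pulsed at embryonic day 8.5 gave the library labelled early EMP, for early erythro-myeloid progenitor. Runx1Cre/EYFP mice pulsed at embryonic day 8.5 were the source of the late EMP library, and the same line pulsed at embryonic day 9.5 that of the fetal HSC library, for haematopoietic stem cell. The Cre driver, Csf1r or Runx1, decides which progenitors can be marked. As only the early EMP library used Csf1r, driver and origin cannot be told apart in comparisons with it. With 1 library per origin, nothing could be tested and no p-value is printed. The sources used here do not say how many mice were pooled.

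Histones pack DNA. H2A, H2B, H3 and H4 form the protein core of the nucleosome, and H1 binds the DNA where it enters and leaves. A dividing cell needs a full new set of histones in S phase, and most clustered histone genes are switched on then and off again afterwards. Most of their mRNAs do not carry a poly(A) tail: they end in a short stem-loop that the protein Slbp binds. A few members can also end in a poly(A) tail, among them Hist1h1c, Hist1h2bc and Hist2h2be. The sources used here do not say how RNA was selected for the libraries, so a low value can reflect either a rare mRNA or one that the library preparation did not take up.

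The clustered histones were higher in both Runx1Cre libraries, late EMP and fetal HSC, than in early EMP, and at about the same summed level in both of those. Levels are FPKM, fragments scaled to transcript length and library size, and triplets of values follow the order early EMP, late EMP, fetal HSC. The 62 members summed to 206, 586 and 636 FPKM, which made the late EMP library 2.85-fold and the fetal HSC library 3.09-fold higher than the early EMP library. The ratio of the fetal HSC to the late EMP library was 1.08. Each of the 5 classes was highest in one of the Runx1Cre libraries. H2A gave the largest sum, at 109, 345 and 408 FPKM, ahead of H2B at 71.0, 152 and 146.5 FPKM. H4 reached 12.9, 48.5 and 45.7 FPKM, H1 8.58, 25.5 and 26.5 FPKM, and H3 3.98, 14.6 and 8.98 FPKM. Relative to the early EMP library, the class sums of the late EMP library were between 2.15-fold (H2B) and 3.76-fold (H4) higher, and those of the fetal HSC library between 2.06-fold (H2B) and 3.74-fold (H2A). In bulk RNA, fewer cells making a transcript and less of it per cell cannot be told apart.

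**Figure D1:**
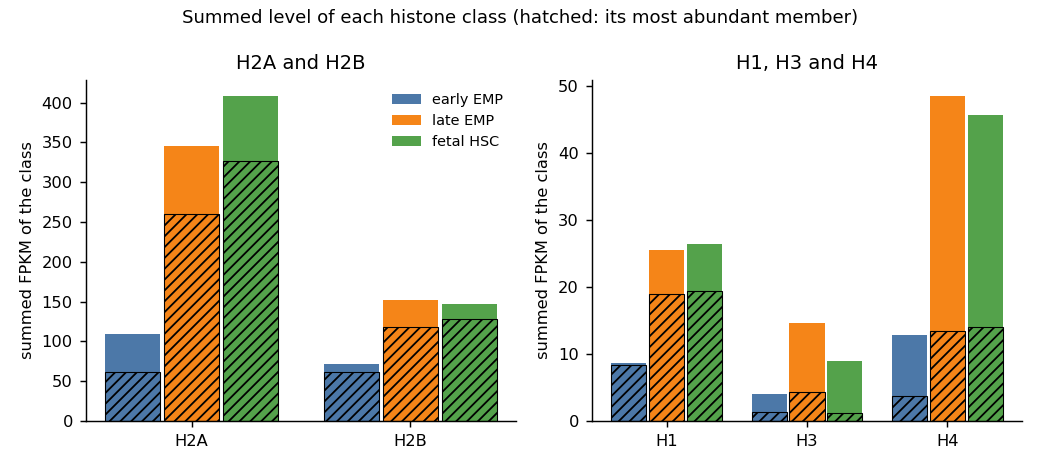
Summed FPKM of each histone class in the 3 libraries (1 library per origin, no error bars), with the hatched part of a bar showing the member with the highest mean level in that class. H2A and H2B are drawn on a taller scale than H1, H3 and H4, and in every class the early EMP bar is the lowest.

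A handful of members carried most of this RNA. The 5 most abundant (Hist1h2ao, Hist1h2bc, Hist2h2aa1, Hist3h2a and Hist1h1c) took 82.4%, 77.5% and 83.3% of the summed level. The remaining 57 members summed to 36.2, 132 and 106.5 FPKM, also lowest in the early EMP library. Of the 62 members, 13 reached 5 FPKM in a library and 49 stayed below it in all 3. The early EMP library listed 24 members at 0, the late EMP library 7 and the fetal HSC library 10. No member reached 1 FPKM in the early EMP library alone, and 17 members at 0 in that library were above 0 in both others. An exact 0 can be a failed estimate between near-identical copies, so these are members listed at 0, not members shown to be silent. The counts at 0 and at 1 FPKM were not made over all genes, and depth is unknown. No difference particular to the histones is read from them.

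**Figure D2:**
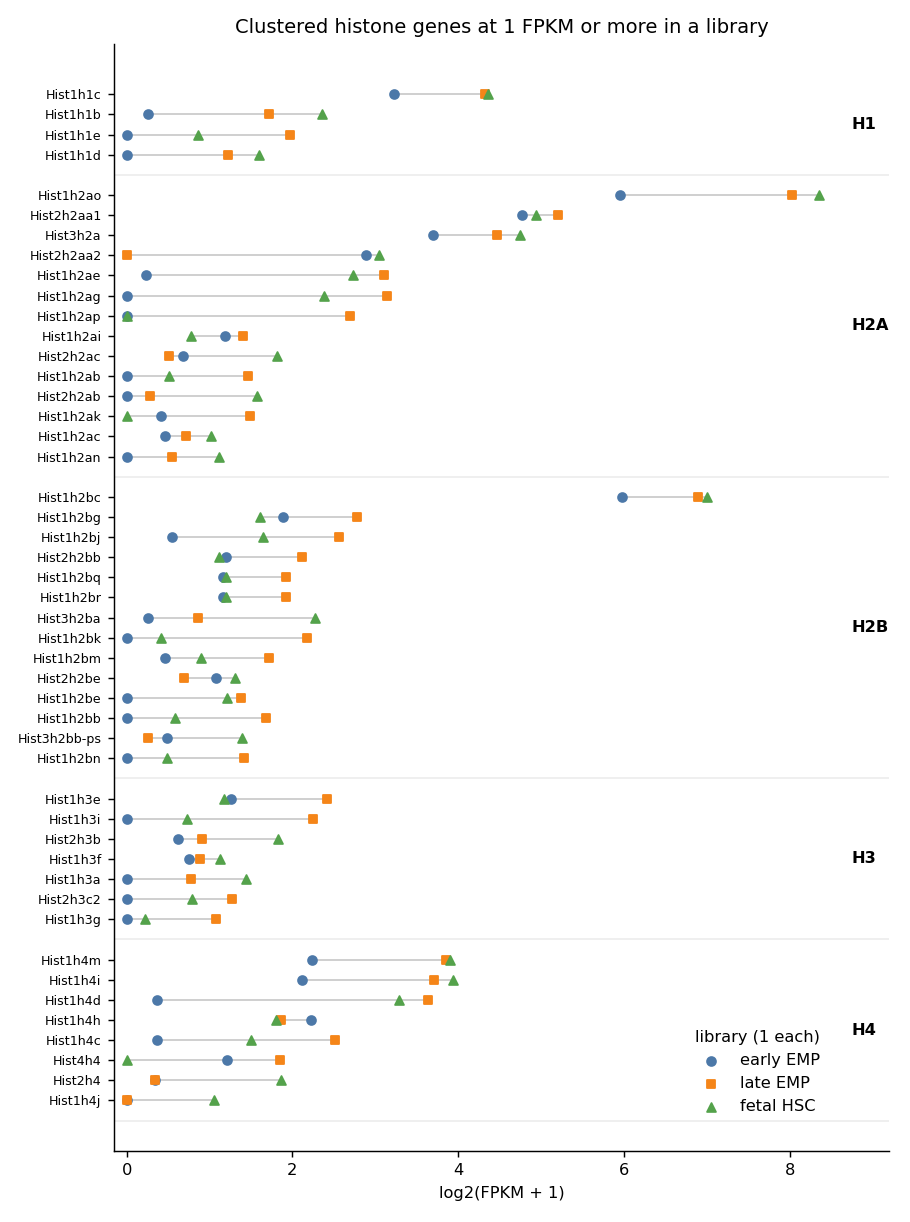
Level of each of the 47 members at 1 FPKM or more in at least 1 library, as log2(FPKM + 1), grouped by histone class and with 1 symbol per library. Hist1h2ao and Hist1h2bc stand far to the right of the other members of their classes, and for most members the early EMP symbol lies to the left of the other 2.

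Among the linker histones, Hist1h1c, whose mRNA is also known with a poly(A) tail, was at 8.38, 19.0 and 19.5 FPKM (chromosome 13, 23738807 to 23739531, GRCm38.p6). It made up 97.7% of the H1 sum in the early EMP library, against 74.4% and 73.6% in the late EMP and fetal HSC libraries. The other H1 genes were at or near 0 in the early EMP library: Hist1h1b was at 0.2, 2.28 and 4.13 FPKM, Hist1h1d at 0, 1.33 and 2.03 FPKM, and Hist1h1e at 0, 2.93 and 0.82 FPKM. Together these 3 summed to 0.2 FPKM in the early EMP library and to 6.54 and 6.98 FPKM in the other 2.

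Among the H2A genes, Hist1h2ao alone supplied 29.7%, 44.3% and 51.4% of all clustered histone RNA. It was at 61.1, 259.7 and 327 FPKM (chromosome 13, 21810367 to 21810918), and on the log2(FPKM + 1) scale used for every log2 difference here it lay above the early EMP library by 2.07 in the late EMP and by 2.40 in the fetal HSC library. Its near-copy Hist1h2ap was at 0, 5.46 and 0 FPKM, and since reads can be split between copies the pair is better read as a sum, at 61.1, 265 and 327 FPKM. Without Hist1h2ao the remaining H2A genes summed to 48.2, 85.5 and 81.5 FPKM, still lowest in the early EMP library but by a smaller ratio (1.78 and 1.69).

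The other H2A genes ranged from small to large differences. Hist2h2aa1 (chromosome 3, 96245497 to 96246052) was at 26.3, 35.9 and 29.8 FPKM. Its copy Hist2h2aa2 was at 6.4, 0 and 7.25 FPKM, and the 2 summed to 32.7, 35.9 and 37.1 FPKM, so the 0 in the late EMP library sits beside a high value of the other copy. Hist3h2a (chromosome 11, 58954685 to 58955192) was at 11.9, 21.2 and 25.9 FPKM, a log2 difference of 0.78 for the late EMP and 1.06 for the fetal HSC library over the early EMP library. Hist1h2ae and Hist1h2ag were at or near 0 in the early EMP library, with 0.18, 7.61 and 5.64 FPKM for the first and 0, 7.86 and 4.21 FPKM for the second. In both genes the late EMP library was the highest. Hist1h2ai, at 1.28, 1.64 and 0.71 FPKM, and Hist1h2ak, at 0.33, 1.81 and 0 FPKM, were also highest there and were lowest in the fetal HSC library.

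Among the H2B genes, Hist1h2bc (chromosome 13, 23684199 to 23692480) dominated, at 61.8, 118 and 127 FPKM. In the early EMP library its level matched that of Hist1h2ao, while in the fetal HSC library Hist1h2ao was well above it. The other 17 H2B genes summed to 9.23, 34.1 and 19.0 FPKM, highest in the late EMP library. Hist1h2bg was at 2.7, 5.86 and 2.04 FPKM and Hist1h2bj at 0.46, 4.9 and 2.13 FPKM. Hist1h2bq and Hist1h2br, whose longest reading frames code for the same protein, were listed with the same value in each library, 1.24, 2.79 and 1.3 FPKM. These 4 genes too peaked in the late EMP library. Hist2h2be, at 1.11, 0.61 and 1.48 FPKM, did not.

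The H3 genes were the lowest of the core histones. Hist1h3e (chromosome 13, 23561475 to 23562385), the H3 gene with the highest mean, was at 1.39, 4.34 and 1.25 FPKM, so that only the late EMP library stood above the rest. Hist1h3i was at 0, 3.76 and 0.66 FPKM, with the same order of late EMP over fetal HSC. Hist2h3b, from the cluster on chromosome 3, was at 0.54, 0.88 and 2.55 FPKM and was highest in the fetal HSC library.

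Among the H4 genes, Hist1h4m, Hist1h4i and Hist1h4d had the highest levels in both Runx1Cre libraries. Hist1h4m was at 3.71, 13.5 and 13.99 FPKM, and it lies just past Hist1h2ao on chromosome 13, at 21811746 to 21812150. Hist1h4i (chromosome 13, 22040960 to 22041362) was at 3.35, 12.1 and 14.3 FPKM. Hist1h4d (chromosome 13, 23581568 to 23581969) was at 0.29, 11.4 and 8.77 FPKM, and its log2 differences over the early EMP library, 3.26 for late EMP and 2.92 for fetal HSC, were the largest of any member above 0 in all libraries. Hist1h4h went the other way, at 3.67, 2.65 and 2.48 FPKM, and in the early EMP library only Hist1h4m was above it in this class. Hist1h4c was at 0.29, 4.7 and 1.83 FPKM, and Hist4h4, alone on chromosome 6, was at 1.32, 2.61 and 0 FPKM.

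Counted gene by gene, about 1 in 2 of the members measured were at least 2-fold higher in a Runx1Cre library than in the early EMP library, on the log2(FPKM + 1) scale. The count covers the 47 members at 1 FPKM or more in at least 1 library, and of these 24 (51.1%) were at least 2-fold higher and 1 (2.13%) at least 2-fold lower in the late EMP library. Over all 14412 genes that met the same filter, 8.65% were higher and 10.8% lower. For fetal HSC, 22 members (46.8%) were at least 2-fold higher and 1 (2.13%) lower relative to early EMP, against 8.19% and 17.8% of all genes. Most members were low, so they were also set beside the 5836 other named genes whose highest level was 1 to 10 FPKM. Of these, 9.68% were higher and 6.08% lower by 2-fold in the late EMP library. For fetal HSC these shares were 10.4% and 12.3%. The member shares still cover all 47, of which 8 reached 10 FPKM in a library, so the levels were not fully matched. All genes include rows without a symbol. Of 11482 other named genes at any level, 7.37% were higher and 4.25% lower in late EMP, and 7.92% and 8.61% in fetal HSC. The median log2 difference of the 47 members was 1.08 for late EMP and 0.86 for fetal HSC over early EMP, with medians of 0.00 and -0.11 over all genes. Over all 62 members, filtered or not, the medians were 0.76 and 0.49. The count depends on the scale: with a pseudocount of 5 FPKM in place of 1 the members at least 2-fold higher were 7 in the late EMP and 5 in the fetal HSC library. With members whose longest reading frames gave the same protein summed and counted once, 13 and 12 of 24 sums were higher and 0 lower. Both comparisons use the same early EMP library, so they are not independent of each other.

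The filter shaped these counts. Of the 47 members, 22 reached 1 FPKM in a single library, 11 of them in the late EMP and 11 in the fetal HSC library, and such members had to differ. They made up 11 of the 24 members at least 2-fold higher in the late EMP library and 8 of the 22 in the fetal HSC library. At the filter's edge, the lowest member kept had a highest level of 1.02 FPKM and the highest member left out one of 0.9 FPKM. Without regard to size, 50 of the 62 members were higher, 7 lower and 5 equal in the late EMP library relative to early EMP. In the fetal HSC library 46 were higher, 13 lower and 3 equal. These any-size counts were not made over all genes, so nothing is read from them.

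Each class took part. In the late EMP library 4 of 4 H1 genes, 6 of 14 H2A, 6 of 14 H2B, 4 of 7 H3 and 4 of 8 H4 genes that met the filter were at least 2-fold higher than in the early EMP library. In the fetal HSC library the counts were 3, 7, 4, 2 and 6 in the same order. Members at least 2-fold lower were Hist2h2aa2 in the late EMP library and Hist4h4 in the fetal HSC library, each listed at 0 there.

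**Figure D3:**
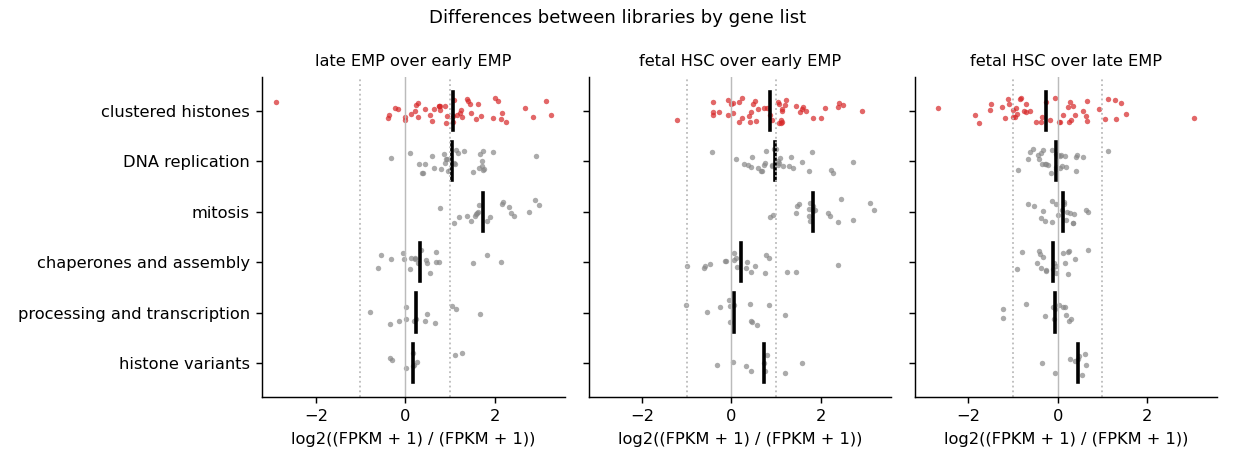
Log2 difference of each gene in 6 gene lists for the 3 comparisons of libraries, with the clustered histones in red, a black bar at each list's median and dotted lines at 2-fold. The clustered histones spread widely, with medians of 1.08, 0.86 and -0.26, while the mitosis genes sit together to the right in both comparisons with the early EMP library.

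Between the libraries from the same driver line, members moved in both directions and the sums stayed close. Of the 47 members, 7 (14.9%) were at least 2-fold higher and 10 (21.3%) at least 2-fold lower in the fetal HSC than in the late EMP library, against 3.44% and 8.26% of all genes and 4.06% and 7.56% of named genes whose highest level was 1 to 10 FPKM. The median log2 difference of the members was -0.26, beside -0.10 for all genes. H3 was the class with the lowest ratio of fetal HSC to late EMP, 0.614, and H2A that with the highest, 1.18. Without Hist1h2ao the H2A ratio was 0.954 and the ratio of all members 0.947, so the direction of both sums turned without that gene. Under median-of-ratios scaling, which moves every log2 difference in this comparison by 0.13, the H2B and H4 sums turned from slightly lower to slightly higher in the fetal HSC library, and the H1 sum turned the other way when totals were set equal.

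By cluster, the sums of Hist1, Hist2 and Hist3 were close or higher in the fetal HSC library, with ratios to late EMP of 1.07, 1.16 and 1.41. The Hist1 sums, 518 FPKM in late EMP and 554 FPKM in fetal HSC, include Hist1h2ao at 259.7 and 327 FPKM, so their direction rests on that gene. The single Hist4 gene was at 2.61 and 0 FPKM. Counts of single genes split otherwise. Of 34 measured members of the large Hist1 cluster on chromosome 13, 1 was at least 2-fold higher and 9 were lower in the fetal HSC than in the late EMP library. In the Hist2 cluster on chromosome 3, 4 of 9 were higher and 0 lower, and in the Hist3 cluster on chromosome 11, 2 of 3 were higher and 0 lower. These counts rest on low genes: 6 of the 7 higher genes reached 1 FPKM in the fetal HSC library alone and 6 of the 9 lower Hist1 genes in the late EMP library alone, so that they had to differ, and nothing is read from the split. Hist2h4, an H4 gene, was at 0.27, 0.27 and 2.65 FPKM, Hist2h2ac, an H2A gene, at 0.6, 0.43 and 2.51 FPKM, and Hist3h2ba, an H2B gene, at 0.2, 0.81 and 3.84 FPKM. In these 3 genes the fetal HSC library alone was high, by log2 differences of 1.52, 1.30 and 1.42 over late EMP. The others past 2-fold were Hist2h2ab at 0, 0.22 and 1.98 FPKM, Hist2h2aa2, listed at 0 in the late EMP library though its sum with Hist2h2aa1 was nearly equal, the pseudogene Hist3h2bb-ps at 0.4, 0.2 and 1.63 FPKM, and, in the Hist1 cluster, Hist1h4j at 0, 0 and 1.08 FPKM. On the lower side the largest log2 difference was -2.69 for Hist1h2ap, listed at 0 in the fetal HSC library though its sum with Hist1h2ao was higher there. Hist4h4, also at 0 there, had one of -1.85. Hist1h2bk was at 0, 3.52 and 0.33 FPKM, a log2 difference of -1.76, and Hist1h3i had one of -1.52. Hist1h2bg had one of -1.17. The genes named here stayed below 5 FPKM apart from Hist2h2aa1, Hist2h2aa2, Hist1h2ao, Hist1h2ap and Hist1h2bg.

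The genes sit in tight groups. On chromosome 13, 22 members lay between 21715711 and 22043658 and summed to 74.02, 329 and 373 FPKM, and 26 lay between 23531044 and 23762386 and summed to 81.1, 189.0 and 181 FPKM. The first group includes Hist1h2ao and the second Hist1h2bc. The 9 Hist2 members, between 96219885 and 96270192 on chromosome 3, summed to 36.5, 43.1 and 50.1 FPKM, and the 3 Hist3 members on chromosome 11 to 12.5, 22.2 and 31.4 FPKM. The Hist2 sum thus differed least among the libraries.

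In 12 places an H2A and an H2B gene stand head to head, transcribed away from each other from starts 164 to 268 bases apart (median 186). These pairs share the DNA between their starts, yet their levels were often far apart. Hist1h2ao, at 61.1, 259.7 and 327 FPKM, faces Hist1h2bq, at 1.24, 2.79 and 1.3 FPKM. Hist1h2bc, at 61.8, 118 and 127 FPKM, faces Hist1h2ac, at 0.38, 0.64 and 1.02 FPKM. In each of these pairs the same partner was the higher one in all 3 libraries. Hist1h2ag and Hist1h2bj lay closer, at 0, 7.86 and 4.21 FPKM against 0.46, 4.9 and 2.13 FPKM, and both partners had their lowest value in the early EMP and their highest in the late EMP library. Hist1h2ae and Hist1h2bg both peaked in the late EMP library, but Hist1h2bg did not share the low value of Hist1h2ae in the early EMP library.

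**Figure D4:**
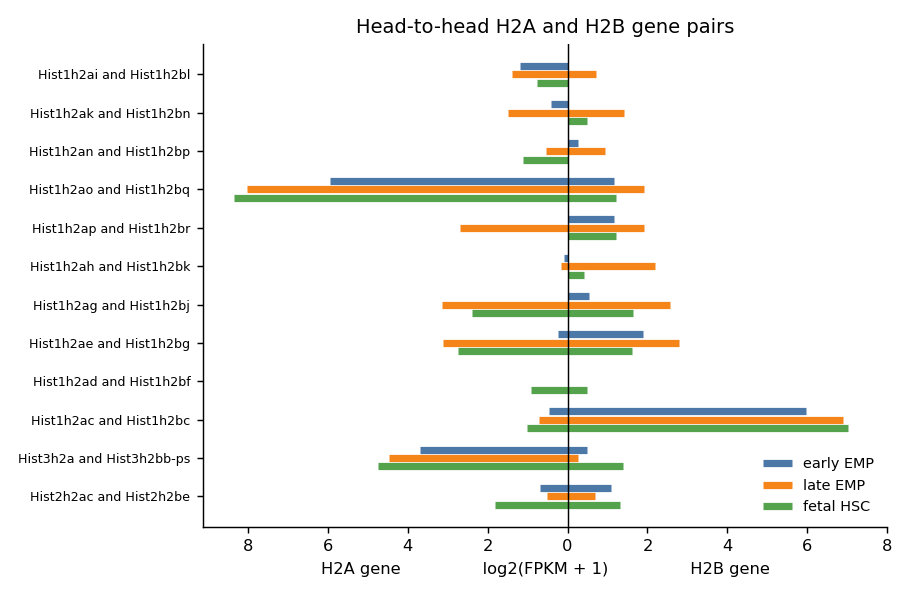
Levels, as log2(FPKM + 1), of the 12 head-to-head pairs, with the H2A gene drawn to the left of the centre line and the H2B gene to the right, and 1 bar per library. In the pairs of Hist1h2ao, Hist3h2a and Hist1h2bc that gene has the longer bar in all 3 libraries, and in the pair of Hist1h2ag and Hist1h2bj both bars are long in the late EMP and fetal HSC libraries.

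The stem-loop is shown for examples of each class because most mRNAs of clustered histone genes end in it. It was searched for as a 16-base hairpin after the stop codon in GENCODE transcripts of GRCm38, and was found in 42 of the 60 protein-coding members. Of the rest, 13 have an annotation with fewer than 30 bases after the stop codon, too short to hold it, and 5 have more and no match. In 21 of the 42, the annotated transcript runs 100 or more bases past the stem-loop. Among the genes printed these are Hist3h2a, Hist1h1c, Hist1h2bg, Hist1h3e, Hist1h4d and Hist1h4i. A match thus does not show that the transcript ends there. The stem-loop is in capitals, with 5 bases on each side, in DNA letters 5′ to 3′.
Hist1h2ao: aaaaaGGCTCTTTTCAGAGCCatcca
Hist2h2aa1: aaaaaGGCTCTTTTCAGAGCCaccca
Hist3h2a: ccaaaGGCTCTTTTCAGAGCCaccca
Hist1h1c: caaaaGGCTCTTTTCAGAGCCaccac
Hist1h2bg: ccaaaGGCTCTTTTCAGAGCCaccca
Hist1h3e: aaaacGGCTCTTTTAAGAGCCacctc
Hist1h4d: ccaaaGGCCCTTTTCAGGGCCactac
Hist1h4i: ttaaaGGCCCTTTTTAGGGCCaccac
The H1, H2A and H2B genes listed carry the same 16 bases, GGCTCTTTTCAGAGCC, found in 25 members of 4 classes (3 H1, 10 H2A, 8 H2B and 4 H3) and in no H4 gene. The loop of Hist1h3e, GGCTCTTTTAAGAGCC, was found in 5 members. All 10 H4 stem-loops belonged to other kinds, of which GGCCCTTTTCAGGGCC, the loop of Hist1h4d, was the most common with 5 genes. Hist1h2bc, the second most abundant member, was among the 5 genes with 30 or more annotated bases after the stop codon and no stem-loop found, as was Hist2h2be. For Hist2h3b, which has 37 such bases, the annotation may be too short to hold it. Hist1h2bq and Hist1h2br are in this set through transcripts with 823 bases after the stop codon. Their other protein-coding transcripts end at it. Hist1h2bc was searched in 1 transcript of 1156 bases, from a gene that spans 8282. No match in the annotation thus does not show that a gene lacks the stem-loop. The 5 genes without a match summed to 65.9, 125 and 134 FPKM. The 42 genes with a stem-loop summed to 135, 444 and 490.0 FPKM, and both sets were lowest in the early EMP library. Of the 42, the 21 annotated 100 or more bases past the stem-loop summed to 31.4, 99.1 and 94.6 FPKM. Which end the RNA of these genes had was not measured. The 3 members known for polyadenylated transcripts, Hist1h1c, Hist1h2bc and Hist2h2be, summed to 71.3, 138 and 148 FPKM, ratios to the early EMP library of 1.93 and 2.08.

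Promoters were read for 55 members from RefSeq's GRCm38.p6 sequences, from 250 bases before to 50 after the start, and searched on both strands for 5 motifs known from histone promoters. These were the TATA box TATAAA, the CCAAT box CCAAT, the octamer ATTTGCAT bound by Oct factors, the H1 box AAACACA, and GGTCCG, the core of an element of H4 promoters bound by Hinfp. No motif contains another, though some, such as TATAAA and AAACACA or CCAAT and ATTTGCAT, can share bases where they meet. CCAAT was in 48 of 55 member promoters (87.3%), against 37.4% of 32851 promoters of all genes, and TATAAA in 30 (54.5%) against 13.6%. The other 3 followed class. AAACACA was in 4 of 4 H1 promoters (7.18% of all promoters), 112 to 122 bases before the start. GGTCCG was in 9 of 10 H4 promoters (8.25% of all promoters), and ATTTGCAT in 6 of 17 H2A and 6 of 15 H2B promoters (1.74% of all promoters) and in 0 of the H1, H3 and H4 promoters. CCAAT was in every H1, H2A, H2B and H3 promoter read, and in 3 of 10 H4 promoters. The stretches read for head-to-head H2A and H2B partners overlap, so a single match can count for both. The octamer of Hist1h2ae and Hist1h2bg is 1 site, as is that of Hist1h2ah and Hist1h2bk. Counts for H2A and H2B are therefore not independent. A match is a match of letters, and no binding was measured.

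**Figure D5:**
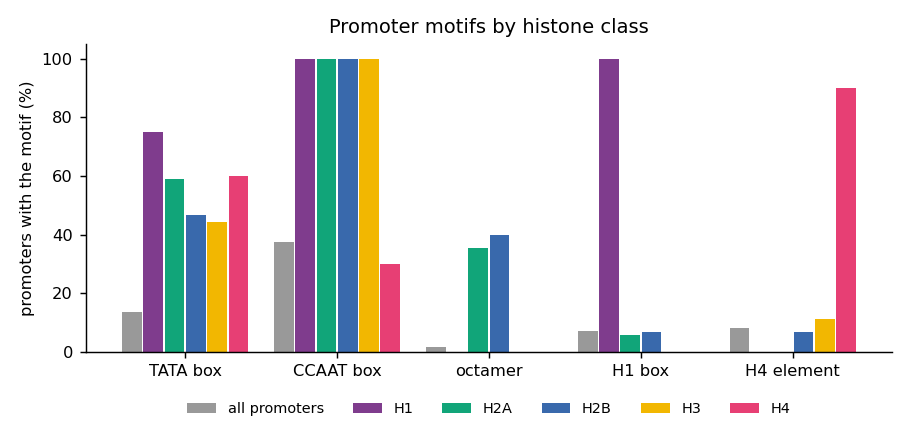
Share of promoters (percent, from 250 bases before to 50 after the start) that hold each of 5 motifs, for the promoters of all genes in grey and for each histone class. The H1 box and the H4 element each stand out in the class they are named for, and the octamer was found among H2A and H2B promoters but in no other histone class.

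The promoters below belong to members with large or unlike differences between the libraries, and end at the base before the start of the gene named. For Hist1h2ao, Hist1h2bg and Hist1h2bj they hold only the DNA between that gene and its head-to-head partner. Capitals mark the CCAAT box and the H1 box in Hist1h1c, the H4 element in the H4 genes, and the CCAAT box and the octamer in the pairs, on either strand (ATTGG is CCAAT on the other strand). Other motifs were left in lower case.
Hist1h1c chr13:23738557-23738806, plus strand: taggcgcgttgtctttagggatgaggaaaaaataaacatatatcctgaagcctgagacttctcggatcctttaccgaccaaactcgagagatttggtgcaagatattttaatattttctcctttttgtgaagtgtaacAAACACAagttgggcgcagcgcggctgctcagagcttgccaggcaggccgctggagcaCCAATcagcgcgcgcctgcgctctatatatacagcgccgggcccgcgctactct
Hist1h4d chr13:23581318-23581567, plus strand: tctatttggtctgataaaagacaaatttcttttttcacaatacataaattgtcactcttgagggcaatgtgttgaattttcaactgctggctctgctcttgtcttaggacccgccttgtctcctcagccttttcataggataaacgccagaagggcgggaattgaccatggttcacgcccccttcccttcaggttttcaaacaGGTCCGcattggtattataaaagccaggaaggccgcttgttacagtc
Hist1h4i chr13:22041363-22041612, minus strand: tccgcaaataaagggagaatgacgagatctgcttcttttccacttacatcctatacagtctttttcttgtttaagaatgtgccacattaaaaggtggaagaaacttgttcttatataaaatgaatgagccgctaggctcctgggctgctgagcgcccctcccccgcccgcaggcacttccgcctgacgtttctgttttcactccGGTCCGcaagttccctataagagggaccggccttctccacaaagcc
Hist1h2ao chr13:21810200-21810366, plus strand: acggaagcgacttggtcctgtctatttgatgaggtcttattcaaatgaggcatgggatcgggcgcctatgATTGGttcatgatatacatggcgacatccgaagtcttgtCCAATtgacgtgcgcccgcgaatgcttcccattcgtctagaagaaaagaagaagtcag
Hist1h2bg chr13:23571221-23571399, plus strand: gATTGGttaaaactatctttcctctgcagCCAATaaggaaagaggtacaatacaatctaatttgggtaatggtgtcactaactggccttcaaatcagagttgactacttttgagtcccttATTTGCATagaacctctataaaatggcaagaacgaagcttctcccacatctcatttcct
Hist1h2bj chr13:22042950-22043197, plus strand: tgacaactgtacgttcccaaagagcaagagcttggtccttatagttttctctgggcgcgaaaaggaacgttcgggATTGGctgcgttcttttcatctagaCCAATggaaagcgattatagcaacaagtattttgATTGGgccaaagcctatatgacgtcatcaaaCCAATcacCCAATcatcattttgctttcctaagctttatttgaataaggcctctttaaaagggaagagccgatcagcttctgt
Hist1h4d and Hist1h4i both hold GGTCCG once, and both were higher in the Runx1Cre libraries, though Hist1h4i was at 3.35 FPKM and Hist1h4d at 0.29 FPKM in the early EMP library. GGTCCG was also found before Hist1h4h, at 3.67, 2.65 and 2.48 FPKM, and Hist4h4, at 1.32, 2.61 and 0 FPKM. H4 genes with the motif thus did not share a direction. The DNA before Hist1h2ao holds CCAAT 2 times and no octamer. That before Hist1h2bg holds CCAAT 2 times and the octamer 1 time, and that before Hist1h2bj CCAAT 5 times.

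The many genes encode few proteins. By their longest reading frames, the 60 protein-coding members gave 27 different proteins. That count depends on the transcripts annotated. Hist1h2bp, Hist1h2bq and Hist1h2br were read from transcripts of 138, 134 and 134 residues, though each also has one of 126. Hist2h3c2 was read at 181 residues, against 136 in the other H3 genes, so it stands outside the 2 H3 proteins given below. The 11 H4 genes shared a single protein of 103 residues, so the H4 sum of 12.9, 48.5 and 45.7 FPKM is the RNA for 1 protein. Another protein was shared by 9 H2A genes, Hist1h2ao among them, with a sum of 63.0, 285 and 341 FPKM. Hist1h2bc shared its protein with Hist1h2be and Hist1h2bg, at 64.5, 126 and 131 FPKM summed. The H3 genes fell mainly into 2 proteins: that of Hist1h3e and 5 others, at 3.54, 7.03 and 5.7 FPKM, and that of Hist1h3a, Hist1h3g, Hist1h3h and Hist1h3i, at 0.44, 6.17 and 2.55 FPKM. Within a class, identity was taken over pairs of genes with proteins of the same length, pairs that share 1 protein included. The median was 99.2% in H2A, 98.4% in H2B and 99.3% in H3, and the lowest 92.3%, 92.1% and 99.3%.

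Genes of DNA copying and of mitosis differed between the libraries in the same direction. Of 30 DNA replication genes, 16 were at least 2-fold higher in the late EMP and 14 in the fetal HSC library relative to early EMP, with 0 lower in either and medians of 1.04 and 0.97. Over all genes, 8.65% and 8.19% were higher in these comparisons and 10.8% and 17.8% lower. Mcm3, a subunit of the helicase that opens DNA, was at 14.7, 51.8 and 38.3 FPKM, and Rrm2, a subunit of the enzyme that makes deoxynucleotides, at 3.35, 12.9 and 19.4 FPKM. Pcna, the sliding clamp of the polymerases, was at 93.6, 143 and 151 FPKM. Of 20 mitosis genes, 19 and 18 were at least 2-fold higher, again with 0 lower, and the medians were 1.74 and 1.82. Birc5, a subunit of the chromosomal passenger complex, was at 4.11, 33.7 and 42.7 FPKM, and Ccnb1, the cyclin of mitotic entry, at 4.88, 25.5 and 29.7 FPKM. Between the fetal HSC and late EMP libraries the medians were -0.05 for replication and 0.11 for mitosis, with 1 replication gene, Ccne2, higher at 0.98, 3.35 and 8.55 FPKM. Over all genes 3.44% were higher there.

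The genes that make histone mRNA differed less. Slbp, which binds the stem-loop, was at 65.8, 104 and 118 FPKM, and Npat, the coactivator of histone genes in S phase, at 2.8, 4.36 and 4.07 FPKM. Of 13 measured genes of histone transcription and mRNA processing, 3 were at least 2-fold higher in the late EMP library than in early EMP, namely Hinfp at 0.66, 4.32 and 1.28 FPKM, Eri1 at 3.42, 8.11 and 9.18 FPKM, and Srrt at 5.84, 14.2 and 8.21 FPKM. Hinfp activates H4 genes, Eri1 is an exonuclease that trims histone mRNA ends, and Srrt works with the cap-binding complex. In the fetal HSC library 1 was higher and 1, the scaffold Sympk at 3.39, 4.05 and 1.16 FPKM, was lower than in early EMP, and Hinfp and Sympk were the 2 lower than in the late EMP library. Over all genes 8.65% were higher in late EMP and 8.19% in fetal HSC than in early EMP. The shares lower in fetal HSC were 17.8% against early EMP and 8.26% against late EMP. Nothing is read from such small counts. The U7 particle proteins Lsm10, at 61.7, 48.5 and 59.8 FPKM, and Lsm11, at 0.24, 0.23 and 0.27 FPKM, lay within 2-fold in every comparison, Lsm11 below the 1 FPKM filter. So did Cpsf3, the cleavage nuclease, at 35.6, 36.3 and 34.5 FPKM, Ncbp1, a cap-binding subunit, at 9.97, 10.2 and 10.4 FPKM, and Cstf2, at 10.3, 9.3 and 8.5 FPKM. Casp8ap2, at 4.3, 5.25 and 4.12 FPKM, and Cpsf2, at 4.3, 6.26 and 6.88 FPKM, lay within 2-fold, as did Coil, at 5.53, 2.78 and 3.47 FPKM, the marker of Cajal bodies.

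Of 20 histone chaperones and assembly factors, 3 were at least 2-fold higher in both Runx1Cre libraries: Asf1b at 7.33, 36.1 and 42.1 FPKM, Chaf1a at 1.71, 8.63 and 6.39 FPKM, and Nasp at 5.96, 18.9 and 15.5 FPKM. Asf1b and Nasp carry new H3 and H4, and Chaf1a places them on freshly copied DNA. Over all genes 8.65% were higher in the late EMP and 8.19% in the fetal HSC library, so nothing is read from the count of 3. The list medians were 0.32 and 0.22 over early EMP.

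The genes listed as replication-independent variants, many of which replace histones outside S phase, had far higher summed FPKM than the clustered genes. Most of their mRNAs have poly(A) tails. As the selection of RNA is not known, the gap cannot be read as a difference in mRNA abundance alone. The variants summed to 2749, 2991 and 3914 FPKM. H3f3b and H3f3a, both coding for the H3 variant of transcribed chromatin, were at 1287, 1444 and 2224 FPKM and at 483, 492 and 387 FPKM. H2afz, an H2A variant at gene starts, was at 697, 786 and 945 FPKM, and H1f0, the linker histone of resting cells, at 191, 151 and 196 FPKM. H2afj was at 25.5, 20.7 and 32.0 FPKM, H2afv at 29.7, 34.3 and 50.5 FPKM, and H2afy at 18.8, 22.7 and 31.8 FPKM. Of 9 variants measured, 2 were at least 2-fold higher in both Runx1Cre libraries, H2afx, which marks DNA breaks, at 6.91, 18.2 and 17.2 FPKM, and Cenpa, the centromeric H3, at 9.58, 22.1 and 30.4 FPKM. With 8.65% and 8.19% of all genes higher in the same comparisons, nothing is read from the count of 2. The list medians were 0.17 for late EMP and 0.72 for fetal HSC over early EMP. The 4 other variants in the table, H1fx, H2afy2, H1fnt and H1foo, stayed below 1 FPKM.

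The sorted cells matched their label by marker genes, and some other markers moved with the histone sums. The 10 mast cell markers, Kit and the granule proteases among them, were above 0 in all libraries and summed to 217045, 187019 and 218474 FPKM of table totals of 639067, 614207 and 640500. Granulocyte precursor and neutrophil markers (5 of 7 in the table) summed to 3.1, 53.3 and 126 FPKM, and Ly6g was listed at 0 in the late EMP and fetal HSC libraries. Melanocyte markers (5 genes) summed to 1.59, 13.8 and 40.7 FPKM, and macrophage markers (8 genes) to 117, 94.5 and 67.7 FPKM. Erythroid markers (6 genes) summed to 155, 16.3 and 11.5 FPKM, and T cell and innate lymphoid markers (5 of 6) to 35.4, 41.2 and 50.6 FPKM. Fibroblast markers (5 genes) summed to 1.54, 6.97 and 3.22 FPKM and keratinocyte markers (4 genes) to 0.64, 2.29 and 1.42 FPKM. Their part in the histone levels was not tested.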

How the data were processed

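RNA-seq was made from total RNA (TRIzol) of sorted skin mast cells and sequenced on an Illumina HiSeq platform, per the labels' protocols. For the 3 libraries the authors deposited FPKM values per gene in a single table with 2 decimals, per the file headers. Bowtie2 and RSEM are named in the submitters' processing notes, beside mm10 and GRCm38 as builds, without versions or parameters. The column headed as a control was matched to the early EMP library through its description in the labels. FPKM is a share, so very abundant genes lower all others, and RSEM divides reads among near-identical copies. The sources used here do not say whether strand was used, so reads of overlapping antisense transcripts cannot be told apart.

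Early EMP, late EMP and fetal HSC had 1 library each, so nothing was tested. From the FPKM values, log2((FPKM + 1) / (FPKM + 1)) was computed for the 3 comparisons, a scale that shrinks differences of low genes. A gene with 1 FPKM or more in at least 1 library was kept (14412 genes), and those at least 2-fold apart were counted. Classes and clusters were summed over all their members. Depth is unknown: at the best depth, 45.1%, 75.5% and 49.2% of low values of single-exon genes were at most 0.15 from whole fragments, where 30% would by chance before fitting, so no interval is given. The 2-fold count was checked on early EMP values at 5 FPKM or more with known 4-fold changes put in. The reading frame finder was checked on a made-up sequence. Changes in lower genes and the other steps were not checked this way.

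Members at 5 FPKM or more, up to 4 most different per comparison and direction, and the leading gene of each class were named by rule, with every measured gene of the variant and processing lists. Other members were named after their values were seen. The members and all lists were chosen with earlier results of these data known. Coordinates and promoters come from RefSeq (GRCm38.p6), which matched 62 of 62 members, and transcripts from GENCODE. Alternatives were other pseudocounts, filters, scalings and fold levels, members of 1 protein summed, and sums without the leading gene. Python 3.11.15, numpy 2.4.6, pandas 2.3.3 and matplotlib 3.10.9 were used.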

Additional observations from a re-analysis of the deposited data

How the results depend on the processing

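Of 126 recomputed values of the main results, 82 moved by less than 0.1 on the log2 scale (or, for counts, 1.5 times) and 44 moved further, as given here; of 195 for named members 143 and 52 did. No paired analysis was possible because each group has 1 library. Triplets follow the order late EMP over early EMP, then fetal HSC over early EMP, last fetal HSC over late EMP. With a pseudocount of 0.1 FPKM, the first 2 medians were 1.82 and 1.99, and 35 members in the second comparison and 30 in the last were at least 2-fold apart. A pseudocount of 5 FPKM gave medians of 0.40 and 0.22 and counts of 8 (7 higher), 5 (5 higher) and 2 (1 higher). With no filter the first 2 medians were 0.76 and 0.49. A 5 FPKM filter gave medians of 1.59, 1.13 and 0.036, the last with its sign turned, and counts of 9, 9 and 3, fewer because fewer genes were counted. Filtering on a mean of 1 FPKM, chosen after seeing the data, gave a median of 1.03 for fetal HSC over early EMP. At 4-fold the counts were 10, 6 and 2. Summing members that encode the same protein gave 13 and 12, all higher, and 10 (4 higher).

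Without the leading member, the log2 ratio of sums for late EMP over early EMP was 5.03 for H1, 0.83 for H2A, 1.89 for H2B, 1.99 for H3 and 1.18 for all members. For fetal HSC over early EMP it was 5.13 for H1, 0.76 for H2A, 1.58 for H3 and 1.10 for all. For fetal HSC over late EMP it was -0.068 for H2A, -0.84 for H2B, -0.41 for H3 and -0.079 for all. Median-of-ratios scaling shifted fetal HSC over late EMP by 0.13 for every gene, giving a median of -0.13 and log2 ratios of 0.19 for H1, 0.38 for H2A, 0.078 for H2B, -0.57 for H3, 0.048 for H4 and 0.25 for all; H2B and H4 changed sign. In that comparison H1 also changed sign, from 0.052 to -0.0083, with totals set equal, and H2A and all members did without Hist1h2ao. No other sum changed sign under the alternatives run. Where no construction shows it, the cause was not tested. Unknown depth limits the members below 5 FPKM most.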
